A study of Macaca fascicularis and Macaca mulatta and Papio anubis with 20 samples.

Results

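7 genes of the acute-phase and inflammatory response were followed through spatial transcriptomes of primate dorsal root ganglia, where the cell bodies of sensory neurons lie outside the spinal cord. They are IL6, SOD2, SERPINA3, CHI3L1, PLA2G2A, CFB and ITIH1. They were picked by symbol for their high levels in the *Macaca fascicularis* sections of batch 2, so their difference between batches is described here without a test. All 7 are among the 22000 features counted in *M. fascicularis*, of which 15068 carry a symbol. The sections labelled *Papio anubis* also count all 7, out of 21369 features. Of the 20842 features in the sections labelled *Macaca mulatta*, 5 are these genes, since PLA2G2A and CFB have no feature under their symbols.

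The assay, Visium, reads RNA from a tissue section in an array of barcoded spots and counts transcripts by their unique molecular identifiers (UMIs). The ganglia were bought fresh frozen from a supplier, and the labels name no treatment, disease, strain or age for any animal. 16 of the 20 sections were labelled *M. fascicularis*, 4 from each of 4 title codes, which were a female and a male in batch 1 and another female and male in batch 2. A title code was taken as 1 specimen, so each combination of batch and sex rests on 1 specimen, and whether its sections came from several ganglia of 1 animal is not labelled. The other 4 sections were labelled *M. mulatta* and *P. anubis*, 2 sections from 1 title code each, with batch 2 as their label and no sex. Genes of the *M. mulatta* label are listed under Ensembl identifiers of *P. anubis*, and those of the *P. anubis* label under identifiers of *M. mulatta*, so values given for either label may belong to the other species. What batch stands for is not labelled. Within *M. fascicularis* it goes with the Space Ranger version in the file headers, 2.0.0 in batch 1 and 2.1.0 in batch 2, and batch, specimen and version cannot be told apart.

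The acute-phase response is the change in secreted proteins that follows infection or injury. Cytokines such as interleukin 6, tumour necrosis factor and interleukin 1 act through the transcription factors STAT3 and NF-κB, and the liver answers with a burst of plasma proteins. Fibroblasts, endothelium, macrophages and glia answer the same cytokines with an overlapping set of genes. In a ganglion, sensory neurons are wrapped by satellite glia, their axons by Schwann cells, and the whole by a connective tissue capsule of fibroblasts and vessels.

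Sections of *M. fascicularis* held between 1136433 and 7073134 UMIs under tissue, those labelled *M. mulatta* 190376 and 264661, and those labelled *P. anubis* 595020 and 12595205. The summed neuron list ranged over the *M. fascicularis* specimens from a mean of 22459 CPM (a gene's UMIs over all UMIs under tissue, times 1e6) in the batch 2 male to 30938 CPM in the batch 2 female, and its mean was 11329 CPM in the sections labelled *M. mulatta* and 37708 CPM in those labelled *P. anubis*. The sections labelled *M. mulatta* also held a mean of 25806 CPM of a leptomeningeal list. Its mean was 1183 CPM in those labelled *P. anubis* and 204 to 771 CPM in the *M. fascicularis* specimens. Hepatocyte markers were near 0, with specimen means of 1.56 to 4.30 CPM summed over 10 matched genes in *M. fascicularis*, and albumin (ALB) gave a single UMI in these 16 sections. Sections of 1 specimen are not separate animals, so an SD over sections measures the spread within a specimen. In sections and in spots, more cells of a type and more RNA per cell cannot be told apart.

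IL6 (ENSMFAG00000000229) encodes interleukin 6, the cytokine that starts the hepatic acute-phase programme. In the batch 2 male its levels were 27.96, 67.76, 103 and 31.7 CPM in sections 1 to 4, from 464 UMIs in all. In the batch 2 female there were 4 UMIs over 4 sections, and levels of 0 to 0.46 CPM. The 8 sections of batch 1 held 29 UMIs and lay between 0 and 1.88 CPM. High IL6 was thus found in 1 specimen, and the batches overlapped through the batch 2 female. The male level was 268 times that of the female within batch 2, with an exact 95% interval of 104 to 989 that covers counting error alone. In the sections labelled *M. mulatta* and *P. anubis* IL6 had 0 UMIs, which allows up to 15.8 and 11.3 CPM in the former and 5.04 and 0.24 CPM in the latter.

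SOD2 (ENSMFAG00000046278) encodes the manganese superoxide dismutase of mitochondria, a classic target of NF-κB. Its levels in the batch 2 male were 3428, 4388, 5158 and 5393 CPM. In the batch 2 female they were 456, 520, 395 and 399.6 CPM, and in the 8 sections of batch 1 they ran from 213 to 369.6 CPM with a median of 254 CPM. All 8 batch 2 sections lay above all 8 of batch 1, but the female ones by little and the male ones by about an order of magnitude. The male mean was 10.4 times the female mean in batch 2 and 0.78 times the female mean in batch 1. SOD2 was lower in the sections labelled *P. anubis*, at 114 and 170.1 CPM, and *M. mulatta*, at 42.0 and 15.1 CPM, from 12 UMIs in both.

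The summed granulocyte list, like IL6 and SOD2, stood highest in the batch 2 male. With 7 of 9 genes matched, it ran from 349 to 749.97 CPM in sections of the batch 2 male and from 39.6 to 93.4 CPM in those of the batch 2 female. In batch 1 it ran from 13.0 to 129.8 CPM in the female and from 13.0 to 38.2 CPM in the male. Nearly all of the male level came from the calprotectin genes, S100A8 with a mean of 374 CPM and S100A9 with 216 CPM, while CXCR2 and MPO had 0 UMIs there and CSF3R stood at 2.74 CPM. The adipocyte list also differed, with 4848 ± 1041 CPM in the batch 2 male and 2528 ± 256 CPM in the batch 2 female (SD, n = 4 sections each). The part of either cell type in the IL6 and SOD2 levels was not tested.

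SERPINA3 (ENSMFAG00000045243) encodes alpha-1-antichymotrypsin, a secreted inhibitor of serine proteases such as cathepsin G. In the batch 2 male its sections held 2723, 4195, 4881 and 7483 CPM, and in the batch 2 female 923, 1772, 1399 and 892 CPM. In batch 1 the female sections held 111, 149, 45.8 and 61.8 CPM and the male ones 68.7, 109.9, 25.8 and 34.5 CPM. The batches did not overlap, their means differed 40.0-fold, and within batch 2 every male section lay above every female one. The sections labelled *M. mulatta* held 158 and 109.6 CPM, in the range of batch 1, and those labelled *P. anubis* 25.2 and 32.6 CPM.

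CHI3L1 (ENSMFAG00000003587) encodes YKL-40, a chitin-binding glycoprotein without chitinase activity that activated macrophages and glia secrete. It too was high in both batch 2 specimens. The batch 2 male sections held 361, 458, 465 and 559 CPM and the batch 2 female sections 360.7, 157, 155 and 170.3 CPM, against 11.6 to 21.3 CPM in batch 1. One female section stood at the level of the lowest male section, and the other 3 lay between 155 and 170.3 CPM. Outside *M. fascicularis* all 4 sections were at or below 10.5 CPM.

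PLA2G2A (ENSMFAG00000046389) encodes the group IIA secreted phospholipase A2, which cleaves membrane phospholipids and kills bacteria. Batch 1 gave 47 UMIs in 8 sections, with levels of 0 to 3.23 CPM. In batch 2 the female sections held 717, 174, 208 and 306 CPM and the male ones 41.6, 389, 1093 and 128 CPM. The mean difference between batches, 261-fold, came with a wide spread between sections of a specimen, since the male sections spanned 41.6 to 1093 CPM. In the sections labelled *P. anubis* it gave 10 UMIs, all in section 2.

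CFB (ENSMFAG00000059371) encodes complement factor B, the protease of the alternative pathway convertase. Its levels were 14.9, 6.08, 2.08 and 3.83 CPM in the batch 1 female and 4.69, 7.23, 4.84 and 3.53 CPM in the batch 1 male. In batch 2 the female sections held 39.7, 13.5, 7.97 and 16.8 CPM and the male ones 7.14, 37.3, 65.7 and 18.5 CPM. Batches overlapped, with a 4.38-fold difference of the means. At 16.8 and 12.0 CPM, both sections labelled *P. anubis* fell inside the range of batch 2.

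ITIH1 (ENSMFAG00000038345) encodes a heavy chain of the inter-alpha-trypsin inhibitors, plasma proteins that are transferred onto hyaluronan in inflamed matrix. It was all but absent from batch 1, with 19 UMIs and at most 0.89 CPM in a section. The batch 2 female sections held 43.5, 83.1, 72.2 and 59.0 CPM and the male ones 57.1, 70.4, 73.6 and 54.6 CPM. Unlike IL6 and SOD2, ITIH1 had means of 64.4 ± 17.1 and 63.9 ± 9.46 CPM (SD, n = 4) in the 2 batch 2 specimens. The sections labelled *P. anubis*, read with Space Ranger 2.0.0, held 58.8 and 50.5 CPM, the latter from 636 UMIs.

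5 of the 7 genes did not overlap between batches, all but CFB and IL6. Over all 17322 detected features 1.93% stood that way. Since batch 2 levels chose the 7, nothing is read from that count. Within batch 2, SERPINA3, SOD2 and IL6 had every male section above every female one, and so did CHI3L1 by a margin of under 1 CPM. The same held for 15.3% of the 16320 features detected in batch 2.

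**Figure D1:**
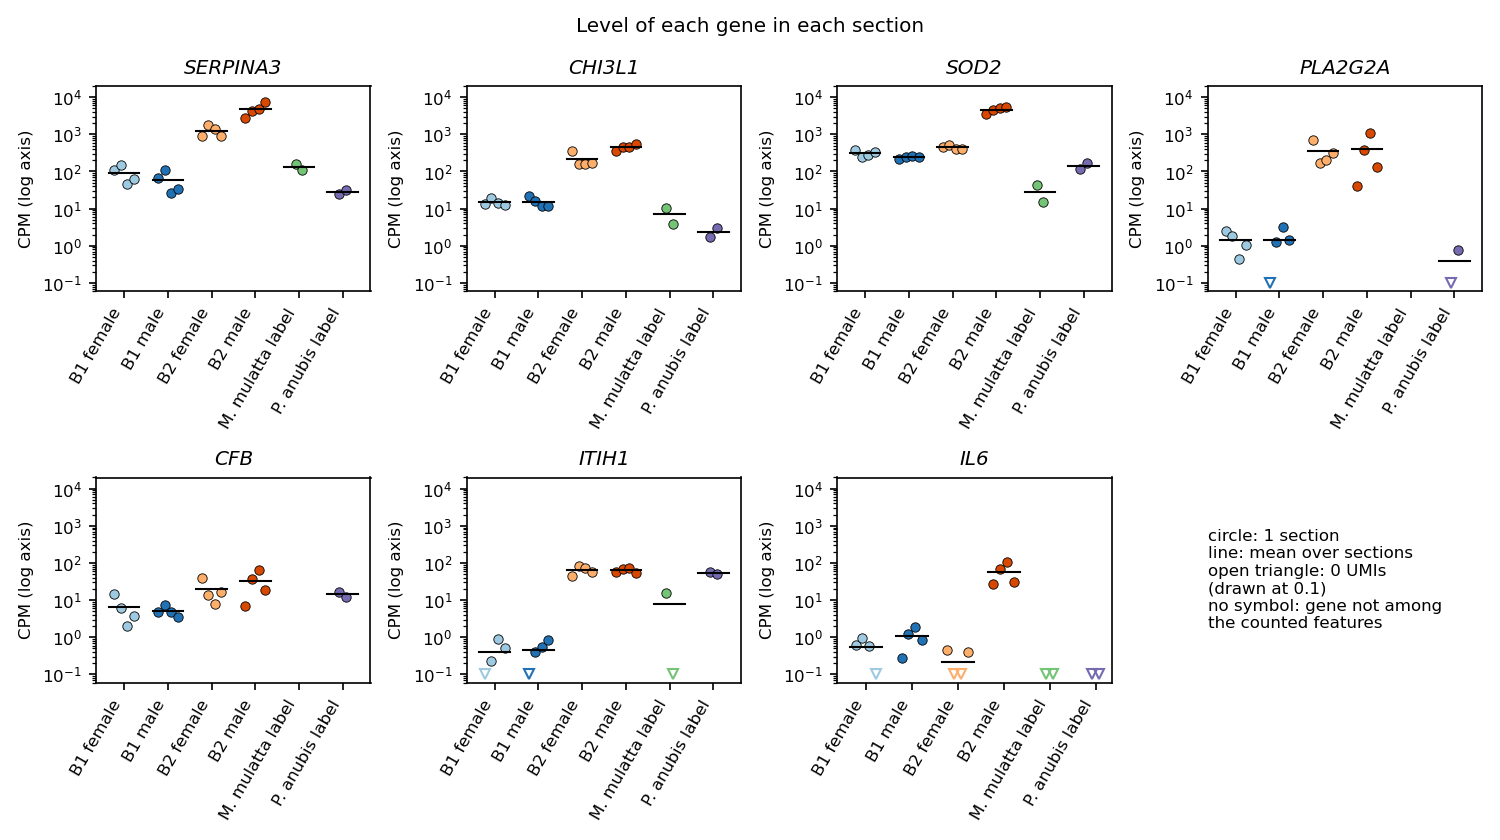
CPM of each gene (vertical log axis) in each of the 20 sections, grouped by specimen (B1 and B2, batches 1 and 2 of *M. fascicularis*), with 1 circle per section and a line at the mean. IL6 and SOD2 stand high in the batch 2 male alone, while PLA2G2A and ITIH1 stand high in both batch 2 specimens.

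Whether the genes differed by sex was asked in a fit of edgeR's quasi-likelihood test on the 4 specimens, with batch as a covariate. 0 of the 7 genes and 0 of the 12650 tested (0%) passed an adjusted p of 0.05, while 169 genes had an unadjusted p under 0.05. IL6 had a log2 difference, male over female, of 4.95 ± 1.43 (SE) and SOD2 one of 1.43 ± 0.76, both with an adjusted p of 0.998 in edgeR's test. With no filter on low counts these 2 passed, and DESeq2 called 0 genes. With 2 specimens a sex, simulated 2-fold changes were recovered in 14.3% of cases and 4-fold ones in 85.3%, and 9.4% of the calls were false. The simulation gave all genes 1 shared spread between specimens, so these shares need not hold for genes that vary more.

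The wider programme in which these genes sit was followed through 6 gene lists, whose 188 non-member genes were chosen with earlier results of these data known. Of 109 genes tested in the batch contrast, 4 were called higher in batch 2 and 4 lower by edgeR's test, 7.34% in all. Of the 12650 genes 2.88% were called, 1.26% higher and 1.61% lower. The median log2 difference over the 109 genes was 0.31, and over all genes it was -0.01.

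Of the 28 genes of the liver-type list 21 were matched and 8 passed the filter on low counts, so most were not tested. Of the 8, 25% were called, against 2.88% of all genes. Among 8 tested genes of the liver-type list, CP, the copper-carrying ferroxidase ceruloplasmin, rose from a mean of 0.33 and 0.31 CPM in the batch 1 female and male to 4.62 and 4.36 CPM in batch 2 (log2 difference 4.06 ± 0.58, adjusted p = 0.0148 by edgeR). TF, the iron carrier transferrin, went the other way, from 359.8 and 304 CPM to 96.4 and 122 CPM (-1.54 ± 0.23, adjusted p = 0.016 by edgeR). TF is also known to be made by myelinating glia. The myelinating Schwann list had specimen means of 4902 and 4554 CPM in batch 1 and of 1677 and 2296 CPM in batch 2. The part of Schwann cell content in the TF difference was not tested.

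In the lists of signalling genes 1 member each was called, while the sums of these lists stood high in the batch 2 male alone. The NF-κB, tumour necrosis factor and interleukin 1 list, with 43 of 48 genes matched, had 3825 ± 286 CPM there and means of 741 to 941 CPM in the other 3 specimens. The interleukin 6 and STAT3 list, with 25 of 32 matched, had 2708 ± 257 CPM there and 1433 to 1723 CPM in the others (SD, n = 4 sections). BCL3, an atypical IκB protein induced by STAT3, had 4 UMIs in batch 1 and 65 in batch 2 (log2 difference 4.75 ± 0.73, edgeR adjusted p = 0.0181), among 23 tested genes of the interleukin 6 and STAT3 list. ZC3H12A, the RNase Regnase-1 that degrades IL6 mRNA, was called among 38 genes of the NF-κB, tumour necrosis factor and interleukin 1 list (3.26 ± 0.63, adjusted p = 0.0409 by edgeR). Like IL6, it was highest in the batch 2 male, with 26.5 ± 8.997 CPM against 3.24 ± 1.08 CPM in the batch 2 female and 1.09 and 1.34 CPM in batch 1 (SD, n = 4 sections).

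Of 14 tested relatives of the 7 genes, 0 were called higher and 2 lower, both heavy chain genes like ITIH1. ITIH5 fell from means of 79.5 and 72.0 CPM to 12.1 and 12.5 CPM (log2 difference -2.49 ± 0.23, edgeR adjusted p = 0.00237). The fibroblast list had means of 4206 and 3441 CPM in batch 1 and 1659 and 1739 CPM in batch 2, and its part in the ITIH5 difference was not tested. ITIH2 fell from 147 UMIs in batch 1 to 5 UMIs in batch 2 (-4.29 ± 0.67, adjusted p = 0.0183 by edgeR). Of 13 tested genes for metal handling and oxidative stress MT4, a metallothionein, was called higher, from 2 UMIs over the batch 1 sections to 112 over those of batch 2. Per UMI of the libraries that is a ratio of 73.0 (exact interval 19.7 to 610.2). Without section 1 of the batch 2 male, TF, BCL3, ZC3H12A, ITIH2 and MT4 missed the threshold, with adjusted p of 0.0518, 0.0521, 0.0986, 0.0605 and 0.0708 and their directions kept, and without section 2 ZC3H12A, ITIH2 and MT4 did, at 0.0903, 0.0532 and 0.0618. ZC3H12A missed it without section 3 of the batch 1 female too, at 0.0594.

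Where in the ganglion each gene lay was not used to choose the 7, and could be tested. In each of the 15 *M. fascicularis* sections with a spot matrix, spots with at least 200 UMIs were ranked by the share of their UMIs in a marker list. Spots above the 75th percentile (4647 of 18594 for fibroblasts, for example) were compared with all others. Counts were summed per specimen, so each test by edgeR's quasi-likelihood method compares 2 sums in each of 4 specimens, with the specimen as a block. A spot holds several cells, and a compartment here is a set of spots rich in a marker list, not a cell type. IL6 passed the filter on low counts only in the fibroblast contrast, and the other 6 genes passed in each of the 8 contrasts. ITIH1, with 9 and 10 UMIs in the batch 1 female and male, passed through its batch 2 levels. It stays among the 6 below, but its values describe the batch 2 specimens.

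In fibroblast spots PLA2G2A and CFB were called higher, 2 of the 6 genes that passed the filter in every contrast, against 20% of the 10314 genes tested, and 0 were called lower, against 17.1%. IL6, which entered through the batch 2 male, is given by its values.

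PLA2G2A reached 4903 CPM in the fibroblast spots of the batch 2 female against 102 CPM in her other spots, and 855 against 68.2 CPM in the batch 2 male. In batch 1, where the gene was scarce, 15 of 18 UMIs in the female and 18 of 28 in the male fell in fibroblast spots, at 11.5 and 11.1 CPM. Fibroblast spots were thus the higher ones in 4 of 4 specimens. The log2 difference over them was 4.74 ± 0.38 (edgeR adjusted p = 1.76e-06), and its change between batches was -0.02 ± 0.28 (adjusted p = 0.995 by edgeR). Fibroblast spots were the higher ones in 7 of 8 sections of batch 1 and in 7 of 7 of batch 2. Without the batch 2 female the log2 difference was 3.90, and without the batch 2 male 5.49.

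CFB stood at 282 against 5.36 CPM in the batch 2 female, 72.4 against 10.97 CPM in the batch 2 male, 40.7 against 1.58 CPM in the batch 1 female and 36.4 against 2.04 CPM in the batch 1 male. Fibroblast spots were higher in 15 sections of 15, with ratios from 3.32 to 70.7, and the log2 difference was 4.49 ± 0.39 (edgeR adjusted p = 3.19e-06). Without the batch 2 female it was 3.75, and without the male 5.09. The change of this difference between batches was 0.28 ± 0.92 (adjusted p = 0.98 by edgeR).

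IL6 in the batch 2 male stood at 173 CPM in fibroblast spots, from 124 UMIs, and at 22.9 CPM elsewhere. The few UMIs of the other specimens lay the same way, with 14 of 33 in fibroblast spots, and the level there was higher in 4 of 4 specimens. In the batch 2 female this rests on 1 UMI in fibroblast spots and 3 elsewhere. By section, fibroblast spots were the higher ones in 5 of 8 of batch 1 and in 3 of 7 of batch 2. The fitted log2 difference was 2.96 ± 0.27. Since IL6 did not pass the filter on low counts without the batch 2 male, the one specimen where it was high, its call is not counted.

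The other 4 genes did not pass in fibroblast spots over the 4 specimens, and the batch 2 female stood apart from the rest for 3 of them. CHI3L1 was 9.20 times as high in her fibroblast spots as elsewhere, SOD2 5.47 times and SERPINA3 3.13 times. In the batch 2 male the ratios were 1.28, 1.66 and 1.32, and in batch 1 they ran from 0.74 to 1.23. By section, the 7 of batch 2 had ratios of 0.96 to 19.97 for CHI3L1, with a median of 1.72. For SERPINA3 they ran from 1.05 to 9.89, with a median of 1.55. Not all sections of the female lay above these medians, so her summed ratios for CHI3L1 and SERPINA3 do not hold for each section. ITIH1 had a ratio of 0.31 in the batch 2 female and 0.88 in the batch 2 male. The log2 differences over all specimens were 0.99 ± 0.50 for CHI3L1, 0.65 ± 0.39 for SOD2, 0.62 ± 0.27 for SERPINA3 and -0.61 ± 0.37 for ITIH1, with adjusted p of 0.137, 0.211, 0.0885 and 0.207 in edgeR's test. With the top 10% of spots in place of the top 25%, CHI3L1, SOD2 and SERPINA3 were called higher too.

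Vascular spots shared this pattern. PLA2G2A (log2 difference 3.09 ± 0.31, edgeR adjusted p = 2.77e-05) and CFB (2.86 ± 0.34, edgeR adjusted p = 8.98e-05) were called there, 2 of 6 tested genes against 17.5% of all genes called higher. Without the batch 2 female PLA2G2A had 2.42 there, and without the batch 2 male 3.74. Fibroblast and vascular spots overlap: in the median section 53.2% of fibroblast spots were also vascular spots. Taken apart in the batch 2 female, PLA2G2A had 5217 CPM in spots that were fibroblast but not vascular, 4631 CPM in spots that were both, 703 CPM in spots that were vascular only and 85.1 CPM in the rest. In the batch 2 male the order differed, with 472, 1595, 91.8 and 64.1 CPM, so that spots rich in both lists were the highest. CFB in vascular only spots, from 0 to 14 UMIs a specimen, was higher than in the rest in the females alone. It stood at 5.67 against 1.38 CPM in the batch 1 female and 28.2 against 4.72 CPM in the batch 2 female. In the males it stood at 0 against 2.14 CPM in batch 1 and 9.79 against 11.2 CPM in batch 2. Fibroblast only spots held 28.0 to 307 CPM of CFB.

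Neuron spots were low in the same genes. PLA2G2A (-2.13 ± 0.28, edgeR adjusted p = 3.14e-05) and CFB (-2.14 ± 0.29, edgeR adjusted p = 3.72e-05) were called lower, 2 of 6 against 22.9% of all genes, and 0 were called higher, against 20.8%. Without the batch 2 female these differences were -0.99 for PLA2G2A and -1.38 for CFB, and without the batch 2 male PLA2G2A had -2.83. At the rim of the tissue, in spots with fewer than 6 tissue neighbours, 3 of 6 were called higher against 2.74% of the 10519 genes tested. These were PLA2G2A (2.71 ± 0.33, edgeR adjusted p = 0.000234), CFB (2.42 ± 0.32, edgeR adjusted p = 0.000438) and CHI3L1 (0.87 ± 0.17, edgeR adjusted p = 0.00764). Without the batch 2 female the rim differences were 1.49, 1.58 and 0.42, and without the male PLA2G2A had 3.59. Of the spots that were rich in fibroblast genes, 37.0% in the median section were rim spots.

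SERPINA3 and CHI3L1 were the 2 genes called in satellite glia spots, where 2 of 6 were higher against 10.6% of all genes. SERPINA3 was higher there in 4 of 4 specimens, by ratios of 1.675, 1.4998, 1.487 and 1.14 in the batch 1 female and male and the batch 2 female and male. Its log2 difference was 0.50 ± 0.06 (edgeR adjusted p = 7.77e-06). For CHI3L1 the ratios were 2.06, 1.70, 1.28 and 1.08 and the log2 difference 0.40 ± 0.09 (edgeR adjusted p = 0.0023). DESeq2 did not call CHI3L1 there (adjusted p of 0.0703). In both genes the ratio was nearest 1 in the batch 2 male, where the level was highest, but the difference between batches did not pass (edgeR adjusted p of 0.778 for SERPINA3 and 0.449 for CHI3L1). Satellite glia and neuron spots were also taken apart. CHI3L1 in satellite glia only, neuron only and neither kind of spot had 253, 137 and 276 CPM in the batch 2 female. The batch 2 male had 433, 432 and 412 CPM. The batch 1 female had 23.8, 13.5 and 10.8 CPM and the batch 1 male 18.1, 14.8 and 10.8 CPM. SERPINA3 was highest of these in satellite glia only spots in each specimen. In the median section 34.2% of satellite glia spots were also macrophage spots.

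In macrophage spots SERPINA3 and CFB were called higher, 2 of 6 tested genes, against 10.1% of all genes. SERPINA3 stood higher there in 15 of 15 sections (0.61 ± 0.13, edgeR adjusted p = 0.0145). For CFB the log2 difference was 1.46 ± 0.37 (edgeR adjusted p = 0.0268). The call of PLA2G2A (1.62 ± 0.44) is not counted, since it did not pass the filter on low counts without the batch 2 female. The ratios of PLA2G2A were 0.53 and 0.78 in the batch 1 female and male and 7.03 and 1.29 in the batch 2 ones, so it was lower in 2 of 4 specimens, and CFB had 0.97 in the batch 2 male. CHI3L1 fell just short (0.80 ± 0.25, edgeR adjusted p = 0.0501). The calls in macrophage spots were less firm than those in fibroblast spots. Without either batch 1 specimen SERPINA3, PLA2G2A and CFB did not pass, with edgeR adjusted p from 0.07 to 0.102. Without the batch 2 female CFB dropped to a log2 difference of 0.55 (adjusted p = 0.0845 by edgeR), and DESeq2 called SERPINA3 alone. In myelinating Schwann spots CFB (1.20 ± 0.29, edgeR adjusted p = 0.00297) and PLA2G2A (0.73 ± 0.19, edgeR adjusted p = 0.00585) were higher, 2 of 6 against 18.8% of all genes. Neither passed with at least 1000 UMIs per spot (log2 differences of 0.93 and 0.14) or in the top 10% of spots (0.46 and 0.31), and without the batch 2 female PLA2G2A had an adjusted p of 0.0722. In adipocyte spots 9.56% of all genes were called lower. PLA2G2A had ratios of 0.60 and 1.97 in the batch 1 female and male and of 0.64 and 0.42 in the batch 2 ones. Its call there (-0.85 ± 0.17) is not counted, since it did not pass the filter on low counts without the batch 2 female and was not made by DESeq2 (adjusted p = 0.501).

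ITIH1 was called in 0 of 8 contrasts, with log2 differences between -0.61 and 0.14, and so was SOD2, between 0.03 and 0.65. Depth differed between the compartments. The median section had a median of 781 UMIs per spot in fibroblast spots and 2206.5 in the others, and 4681 against 1228 in neuron spots. With at least 1000 UMIs per spot, PLA2G2A and CFB were still called higher in fibroblast, vascular and rim spots and lower in neuron spots.

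**Figure D2:**
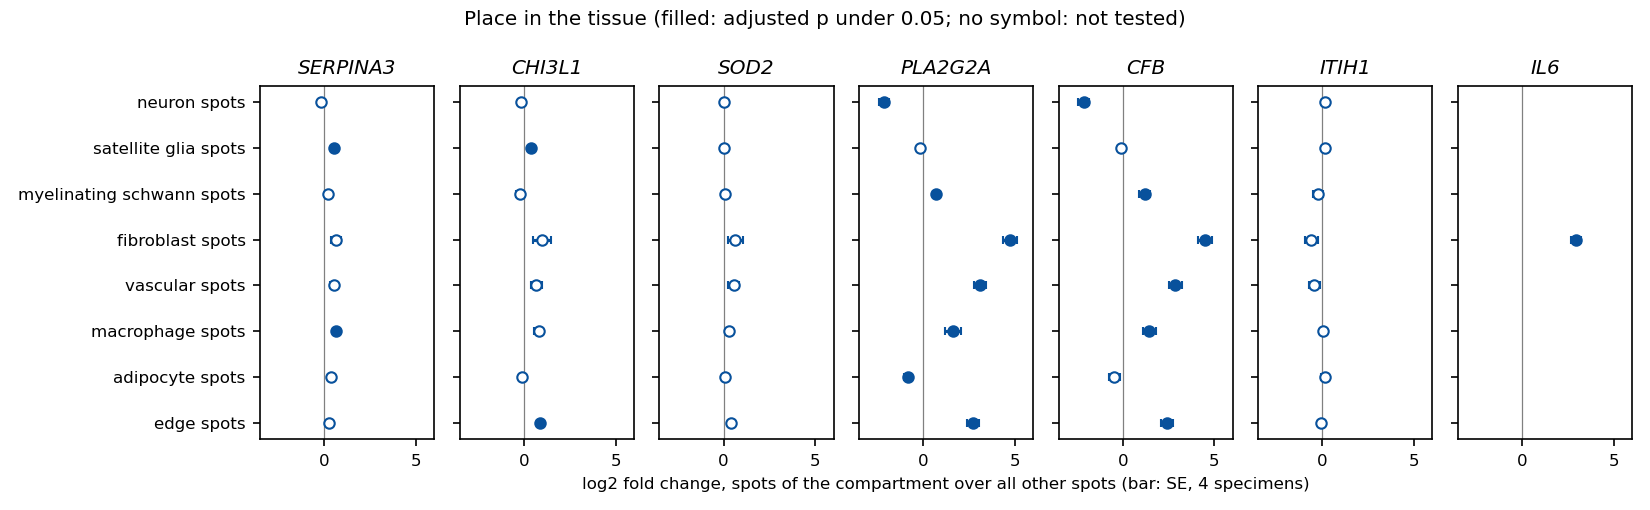
Log2 fold change (horizontal axis) of each gene in the spots of a compartment over all other spots, from 4 specimens, with the standard error as a bar and filled symbols for an adjusted p under 0.05. PLA2G2A and CFB stand at 4.74 and 4.49 in fibroblast spots and below 0 in neuron spots, while ITIH1 and SOD2 have no filled symbol.

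SOD2 differed between batches in where it was high. In neuron spots it was higher than elsewhere in 7 of 8 sections of batch 1, with a median ratio of 1.35, and lower in 7 of 7 sections of batch 2, with a median ratio of 0.79. The log2 difference between batches was -0.88 ± 0.13 (edgeR adjusted p = 0.0417), and this was 1 of 4 genes called among 11511 (0.0347%). It was called by DESeq2 (adjusted p = 0.000392) and missed the threshold without the batch 1 female (-0.86, adjusted p = 0.402) or the batch 1 male (-0.92, adjusted p = 0.175).

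In Schwann spots the order was the other way. SOD2 was lower there in 8 of 8 batch 1 sections and higher in 7 of 7 batch 2 sections, with a log2 difference between batches of 0.89 ± 0.25 (edgeR adjusted p = 0.125). In fibroblast spots the median ratio was 0.84 in batch 1 and 4.10 in batch 2 (2.01 ± 0.57, edgeR adjusted p = 0.915). Neither difference passed over all genes. The batch 2 female had ratios of 4.10 to 6.56 in fibroblast spots, and the male, whose SOD2 level was 10.4 times hers, had ratios of 1.24 to 1.96.

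**Figure D3:**
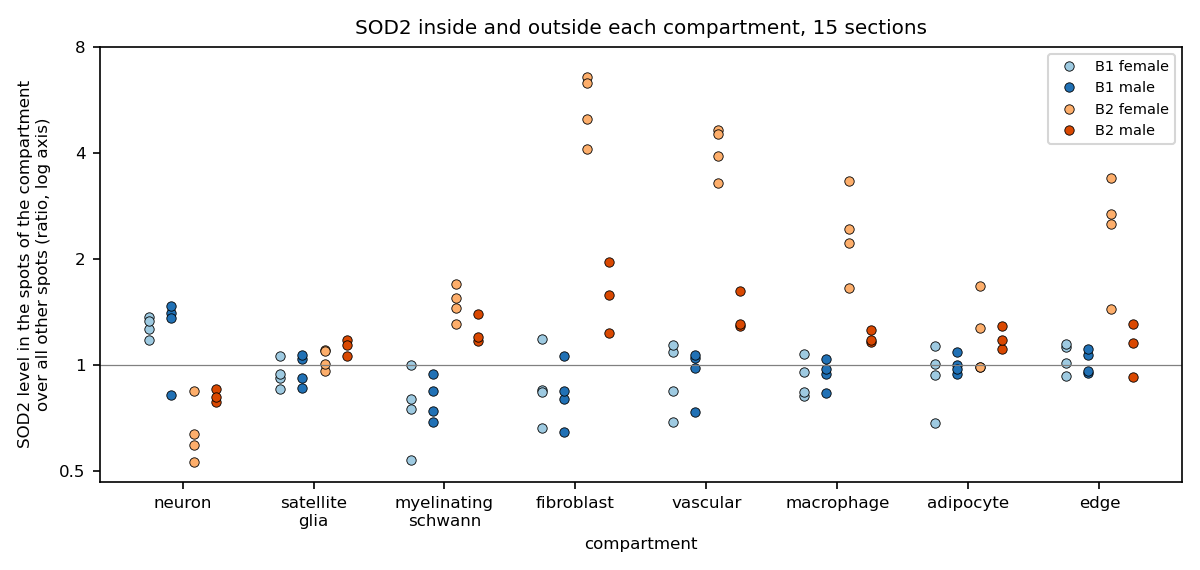
Ratio of the SOD2 level in the spots of each compartment to the level in all other spots (vertical log axis), with 1 circle for each of the 15 *M. fascicularis* sections that have a spot matrix. In neuron spots all 7 batch 2 sections lie below 1 and 7 of 8 batch 1 sections above it, and in fibroblast spots the batch 2 female sections lie at 4.10 to 6.56.

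CFB gave the other difference between batches that passed. In adipocyte spots its ratio was 1.89 and 1.24 in the batch 1 female and male and 0.52 and 0.45 in the batch 2 ones (-1.61 ± 0.47, edgeR adjusted p = 0.0297), where 5.44% of all genes were called. It missed the threshold without the batch 1 female (adjusted p = 0.379) or the batch 1 male (0.108). In the other contrasts 0 of the 7 genes differed between batches, against 0.526% of all genes for Schwann spots, 0.057% for rim spots and 0% for satellite glia, fibroblast, vascular and macrophage spots. The number of such pairs, 2 of the 49 tested, moved between 0 and 21 when a specimen was left out.

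The deeper section labelled *P. anubis* allowed the same look outside *M. fascicularis*, as values without a test. In its 633 fibroblast spots CFB stood at 97.6 CPM against 7.91 CPM elsewhere, a ratio of 12.3 with an exact interval of 8.70 to 17.3 for counting error. Vascular spots gave 7.19 (4.99 to 10.2), and neuron spots 0.33 (0.22 to 0.47). SERPINA3 had a ratio of 1.504 (1.15 to 1.95) in satellite glia spots and 1.56 (1.17 to 2.05) in macrophage spots. It also had 1.44 (1.04 to 1.95) in adipocyte spots, and CFB had 2.46 (1.65 to 3.58) in satellite glia spots. Neither was called in *M. fascicularis*, nor was ITIH1 in fibroblast spots, where its ratio was 0.61 (0.36 to 0.97) here. SOD2 had 1.18 (1.08 to 1.29) in neuron spots, on the side of batch 1, and ITIH1, at 1.30 (1.11 to 1.53) in neuron spots, was lower in Schwann spots (0.45, 0.23 to 0.79).

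Spatial clustering was also given in the authors' deposited table as Moran's I, which is near 0 when neighbouring spots are no more alike than others and rises towards 1 when they are. Of 54 pairs of gene and section listed in the authors' deposited table for batch 2, 41 passed an adjusted p of 0.05, or 75.9%, against 10.9% of all listed pairs, and 21 of 52 in batch 1, or 40.4%, against 21.3%. With I of at least 0.1 as well, 24 pairs passed in batch 2 and 3 in batch 1, against 0.926% and 4.44%. The 3 of batch 1 are all in section 2 of the female, and without it 0 passed, against 2.79%. The 7 were chosen for their levels in batch 2, and the part of abundance in these counts was not tested.

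PLA2G2A had the highest median I of the 7 in batch 2. The authors' deposited table gives 0.302, 0.184, 0.224 and 0.402 in the 4 sections of the batch 2 female and 0.127, 0.2998, 0.313 and 0.0311 in those of the male. It lay above the 99.9th percentile of listed genes in all 4 female sections and in sections 2 and 3 of the male. In section 4 of the male, with 146 UMIs, it did not pass (adjusted p of 0.0702 in the authors' deposited table).

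SERPINA3 and SOD2 passed in 8 of 8 batch 2 sections of the authors' deposited table, with I from 0.0559 to 0.245 and from 0.0883 to 0.224. CHI3L1 split the batch 2 female, at 0.246 and 0.219 in sections 1 and 4 and 0.0202 and 0.0119 in sections 2 and 3, and it lay between 0.0364 and 0.0697 in the male. CFB passed in 7 of 8 sections, with I up to 0.155. IL6 passed in sections 2 and 3 of the batch 2 male, at 0.175 and 0.128, and was near 0 in sections 1 and 4, at 0.0143 and 0.00495, all in the authors' deposited table. ITIH1, at similar levels in all batch 2 sections, had I of at most 0.0419 and passed in 2.

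In batch 1 SOD2 passed in 7 of 8 sections and SERPINA3 in 5. Section 2 of the batch 1 female stands apart, with 40.6% of its listed genes passing and I of 0.185, 0.182 and 0.179 for SERPINA3, SOD2 and CFB in the authors' deposited table. Without it 17 of 45 pairs passed in batch 1, against 18.6% of all pairs. In the section labelled *P. anubis* with more UMIs, CFB, SERPINA3, SOD2 and ITIH1 passed with I of 0.0547, 0.0430, 0.0314 and 0.0280, where 22.6% of the genes listed for that section passed (14.1% over both sections). 0 passed in the sections labelled *M. mulatta*, against 3.04%.

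**Figure D4:**
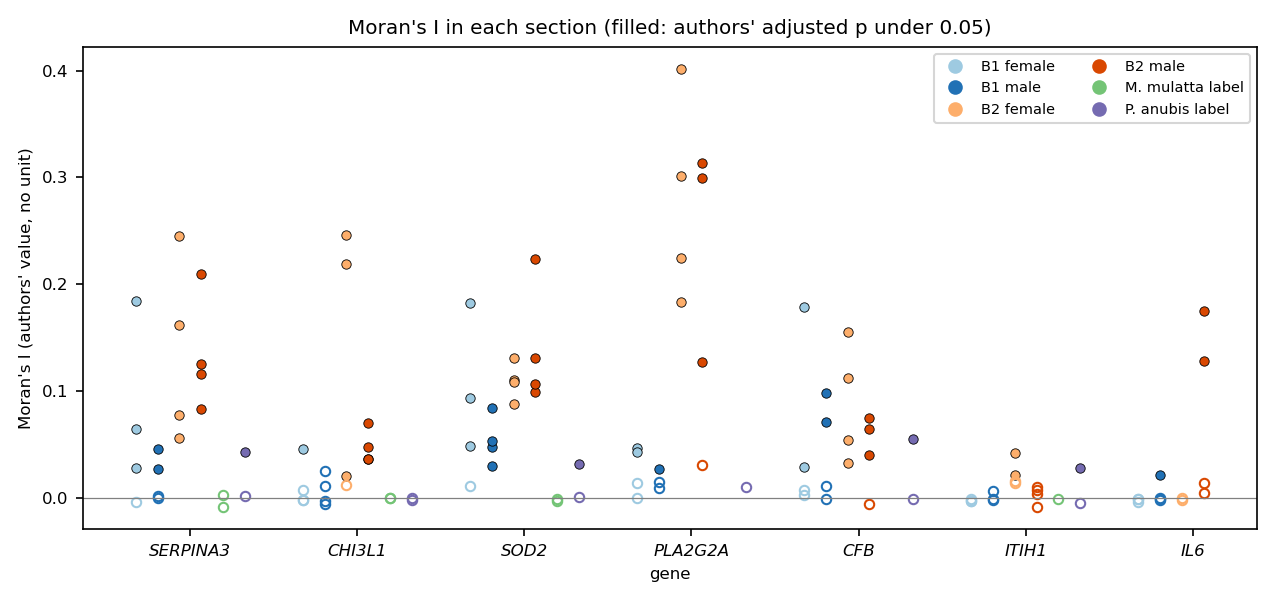
Authors' Moran's I (vertical axis, no unit) of each gene in each section where it is listed, coloured by specimen or labelled species, filled where the authors' adjusted p was under 0.05. PLA2G2A reaches 0.402 in the batch 2 female, and ITIH1 stays at or below 0.0419 throughout.

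Maps were drawn for 1 section of each batch 2 specimen. In section 2 of the female, 42.3% of fibroblast spots and 10.6% of other spots had a PLA2G2A UMI, and bright spots lay along the rim of the 4 tissue pieces. SERPINA3 was detected across the section, in 77.8% of 1791 spots, 63.1% of fibroblast spots and 82.7% of others. In section 1 of the male PLA2G2A was found in 10.2% of fibroblast spots and 6.13% of others, and SERPINA3 in 88.3% of 1218 spots. There SERPINA3 had a UMI in 74.4% of fibroblast spots and 92.9% of others. Fibroblast spots held a median of 383 UMIs in the female section and 489 in the male one, other spots 2133 and 2745. The part of depth in these shares was not tested.

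**Figure D5:**
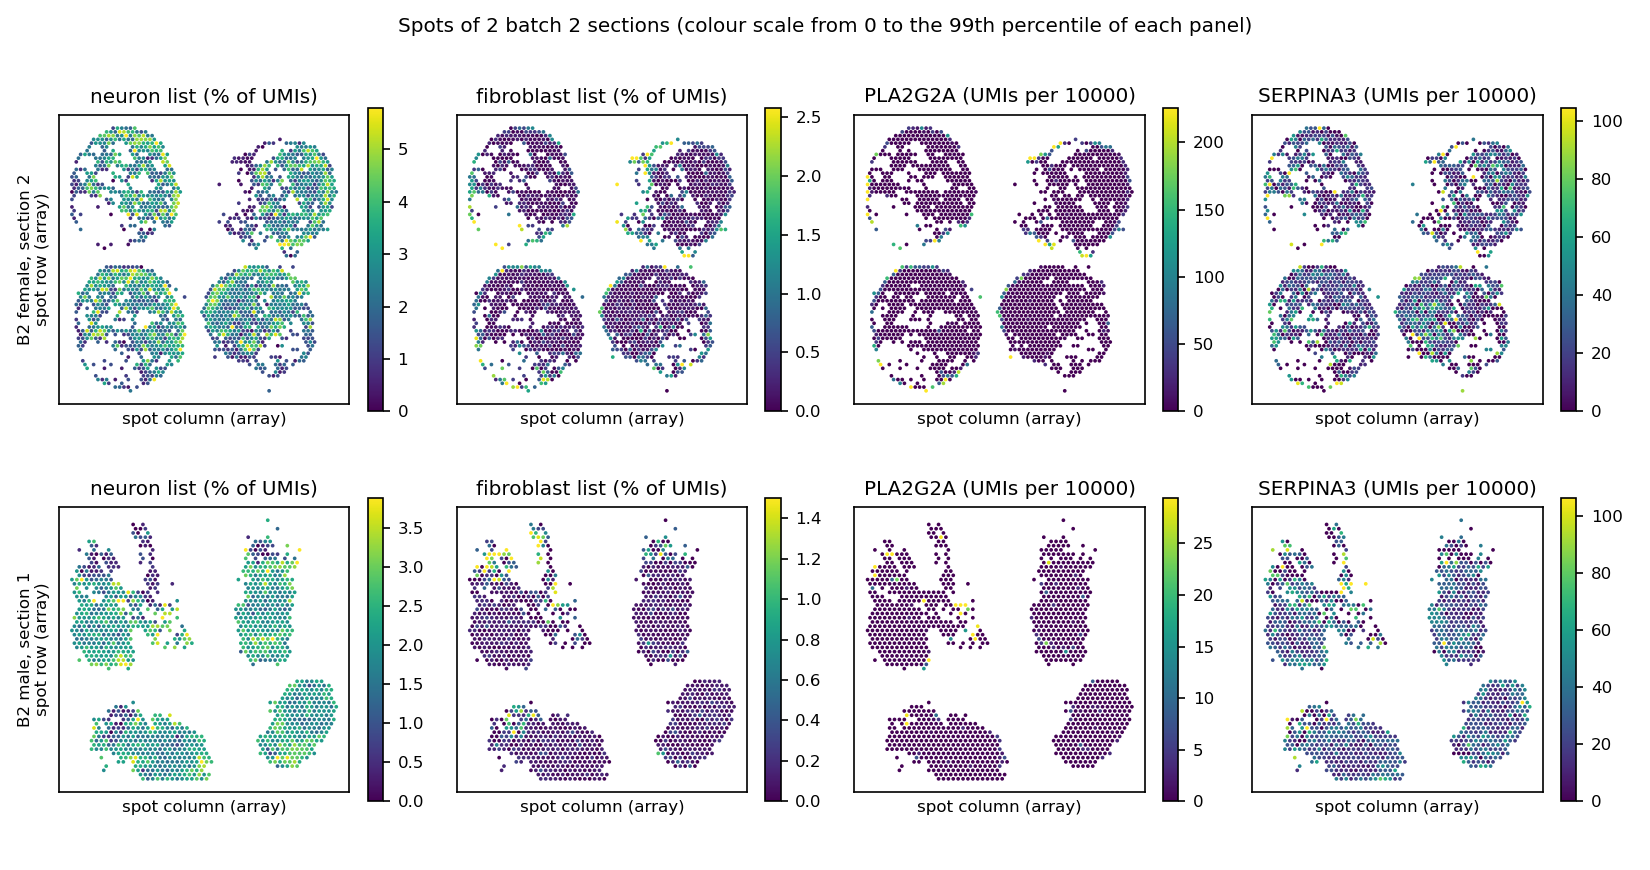
Spots of section 2 of the batch 2 female (top) and section 1 of the batch 2 male (bottom) at their array positions, coloured by the share of UMIs in the neuron and fibroblast lists and by PLA2G2A and SERPINA3 UMIs per 10000. In the female section bright PLA2G2A spots lie along the rim with those of the fibroblast list, in the male section PLA2G2A is sparse, and SERPINA3 is found in 77.8% and 88.3% of the spots.

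Which genes were most alike over spots was described in the 7 batch 2 sections with a matrix, for genes with at least 20 CPM in each, 4382 in all, as the mean over sections of Pearson's correlation within a section. Spots of a section share a library, and low counts keep such correlations small, so they are descriptions with no test. For PLA2G2A the nearest were IGFBP6 (mean r 0.398), TIMP1 (0.295) and DCN (0.286). IGFBP6 and DCN, a growth factor binding protein and the matrix proteoglycan decorin, are both in the fibroblast list. TIMP1, the secreted inhibitor of matrix metalloproteases, was also among the nearest of SERPINA3 (0.183), CHI3L1 (0.178) and SOD2 (0.202).

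Several of the 7 were nearest to each other. SERPINA3 was closest to CHI3L1 (0.217) and then SOD2 (0.197), CHI3L1 was closest to PLA2G2A (0.219) and SOD2 was closest to PLA2G2A (0.252). The correlation of SERPINA3 with CHI3L1 ran from 0.0668 to 0.57 over the 7 sections. That of CHI3L1 with PLA2G2A ran from -0.0115 to 0.683, and that of SOD2 with PLA2G2A from 0.0674 to 0.494. ITIH1 was apart from them, at 0.0247 with SERPINA3, -0.00728 with SOD2 and -0.0561 with PLA2G2A. Its nearest genes were PRPH (0.162), the peripheral neuron filament, STMN2 (0.154), a neuronal microtubule regulator, and BEX1 (0.143). Its correlation with the UMIs of a spot, 0.228, was larger than with any of these genes, so depth moves with them. For SERPINA3, CHI3L1, SOD2 and PLA2G2A the correlation with the UMIs of a spot was 0.164, 0.176, 0.0955 and -0.141. CFB and IL6 were below the minimum level in at least 1 section.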

How the data were processed

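Visium data of dorsal root ganglia were analysed from UMI counts. The authors deposited these counts for every spot and gene; the file headers give Space Ranger 2.0.0 for 12 sections and 2.1.0 for 7. The submitters' processing notes name the build Mmul_10, while the feature identifiers belong to other Ensembl annotations, so no coordinates or sequences are given. The authors deposited, per section and gene, Moran's I (a score) with its p-value, adjusted p-value and a median-normalized average (a signal, not used here). For section 3 of the batch 2 male the table gave the totals, and single spots of it were not used here. Table and matrix differed for 0 genes in the other 19 sections. No 2 sections of a group were within sampling noise (chi-square over degrees of freedom of 3.93 or more in 26 pairs, over genes of 20 counts or more).

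The 7 genes, the marker and pathway lists and the tests were chosen with earlier results of these data known. CPM used all features of spots under tissue. Sections of a title code were summed for edgeR 4.0.16 (R 4.3.3; TMM, filterByExpr, quasi-likelihood test, Benjamini-Hochberg over all genes tested, threshold 0.05), with sex and batch as terms, or with the specimen as a block in the contrasts of spots. SE is the log2 difference over the root of F. P-values measure the spread between specimens, with 2 per batch and per sex. With so few specimens, edgeR's estimate of this spread for 1 gene leans on the spread pooled over all genes. DESeq2 1.42.0, other filters, thresholds and units, and leaving out each section or specimen were the alternatives. Counts were simulated at the mean levels of the real genes, with 1 dispersion (spread between specimens) shared by all genes. In them 4-fold changes were recovered in 91.1% of cases for batch and 98.9% for fibroblast spots, and 2-fold ones in 12.1% and 82.6%. Exact (Clopper-Pearson) intervals at 95% and the upper limit of 3 counts for a count of 0 cover counting error only. Named were all 7 genes, results on compartments where called, in each pathway list the up to 6 genes called with the same direction in both sexes, and the 3 nearest genes over spots. The result of 1 called pathway gene is not reported here.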

Additional observations from a re-analysis of the deposited data

Results flagged for a closer look

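3 of 51 groups of sections held a section that stood apart from the rest, where chance alone gives about 1 in 20. CHI3L1 reached 361 CPM in section 1 of the batch 2 female, while her other sections held 155 to 170.3 CPM. In section 2 of the batch 1 female the authors' deposited table gives CFB a Moran's I of 0.179, and in section 2 of the batch 1 male it gives IL6 0.0213, from 6 UMIs.

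Contrasts of spots differed between batches for 2 pairs of gene and compartment by edgeR's interaction test. SOD2 in neuron spots had a log2 difference between batches of -0.88, and CFB in adipocyte spots one of -1.61.

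Spots outside the tissue entered no comparison of the report, and all 7 genes were detected there. In 7 batch 2 sections these spots held 1315763 UMIs, 4.92% of all. Pooled over both specimens, the levels there were 3124 CPM for SERPINA3, 2952 for SOD2, 1271.5 for PLA2G2A, 428 for CHI3L1, 57.8 for CFB, 36.5 for IL6 and 60.8 for ITIH1. The male gave 798882 of these UMIs but fewer of those under tissue (6259510 against 19174881), so levels outside and under tissue are compared within a specimen. In the male SERPINA3 stood at 4076 CPM outside and 4035 CPM under tissue, SOD2 at 3944 and 4077 CPM, CHI3L1 at 387 and 426 CPM and IL6 at 58.8 and 40.7 CPM. PLA2G2A stood at 418 and 163 CPM there, CFB at 35.05 and 18.4 CPM and ITIH1 at 70.1 and 60.7 CPM. In the female the gap was wider, with PLA2G2A at 2591 and 338 CPM, SOD2 at 1418 and 446 CPM, CHI3L1 at 491 and 206 CPM, CFB at 92.9 and 19.1 CPM and SERPINA3 at 1652 and 1266 CPM, while ITIH1 stood at 46.4 and 65.4 CPM. In batch 1 the levels outside tissue were 77.0 CPM for SERPINA3, 289.9 for SOD2, 1.36 for PLA2G2A, 19.3 for CHI3L1, 10.9 for CFB, 2.18 for IL6 and 0.27 for ITIH1. The part of RNA outside tissue in the levels under it was not tested.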

How the results depend on the processing

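No result reversed under the alternatives run. PLA2G2A and CFB kept their calls in fibroblast, vascular and neuron spots in 10 of 10 alternatives and in rim spots in 8 of 8, and SERPINA3 kept its call in satellite glia spots in 10 of 10. The counts below include IL6 in fibroblast spots and PLA2G2A in adipocyte and macrophage spots. The cause of the following changes was not tested. Pathway genes called higher in batch 2, 4 in the report, were 10 with DESeq2, 26 with no filter, 37 with sections as samples and 42 with the section number as a replicate block, and 1 to 18 when a section was left out. Those called lower, also 4, were 15 with sections as samples, 15 with the block, and 2 to 5 with a section left out. Section numbers did not pair sections: deviations of same-numbered sections correlated at -0.21 to 0.52 (median 0.02), those of others at -0.65 to 0.62. For sex, genes called were 67 with no filter, 8 with sections as samples, 5 with the block and 0 with any section left out, and of the 7 genes 2, 0, 1 and 0. Of the 7 genes, those called with no filter were 4 in neuron, 7 in fibroblast, 5 in vascular, 5 in macrophage and 6 in rim spots. With section pairs and the section as replicate block they were 5 in fibroblast, 5 in vascular, 5 in macrophage and 2 in adipocyte spots. In the top 10% of spots they were 1 in Schwann, 6 in fibroblast, 7 in vascular and 0 in adipocyte spots, and with 1000 UMIs per spot 0 in Schwann and 2 in adipocyte spots. DESeq2 called 1 in satellite glia and 1 in macrophage spots, and did not call CHI3L1 in rim spots (adjusted p = 0.576). Leaving out a specimen gave 2 to 3 in neuron, 2 to 2 in satellite glia, 1 to 2 in Schwann, 2 to 3 in fibroblast, 2 to 5 in vascular, 0 to 4 in macrophage, 0 to 2 in adipocyte and 3 to 3 in rim spots. The 2 pairs that differed between batches became 1 with DESeq2, 5 with 1000 UMIs per spot, 11 with no filter, 5 with section pairs and the replicate block, 4 in the top 10% of spots, and 0 to 21 with a specimen left out; these alternatives were chosen after seeing the data. The summed level of the 7 genes in CPM over genes with shared symbols only was 645 and 498 in the batch 1 female and male, 3835 and 16137 in the batch 2 ones, 347 for the label *M. mulatta* and 446 for *P. anubis*, against 424, 324, 2335, 10439, 177 and 243 CPM. Leaving out a section gave 394 to 451, 303 to 333, 2207 to 2499, 9363 to 11704, 128 to 226 and 217 to 269 CPM. Pairs with Moran's I of at least 0.1 were 3 in batch 1 and 24 in batch 2. Leaving mitochondrial genes out of the totals could be computed for the label *P. anubis* alone. In the sections labelled *M. mulatta*, depth limits IL6 to a bound.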
